A study of Rattus norvegicus with 6 samples.

Results

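The 5 mature miRNAs of the miR-183, miR-96 and miR-182 cluster were examined in the spinal cord of rats with bone cancer pain (BCP) and of sham-operated rats. They are every row of the count table named miR-183, miR-96 or miR-182 with any arm suffix or none, which gave 5 of the 753 listed mature miRNAs, namely rno-miR-183-5p, rno-miR-183-3p, rno-miR-96-5p, rno-miR-96-3p and rno-miR-182. The species prefix rno is left out below. The series holds small RNA libraries of 3 BCP and 3 sham-operated rats, 1 per rat, from tissue taken on day 14 after an injection into the left tibia. The BCP rats had received living cells of Walker 256, a mammary carcinoma line of the rat, and the sham-operated rats heat-killed cells of the same line, so both groups had the operation and the cell injection. The rats were females without a stated genetic change according to the study's methods, which call them Sprague Dawley, whereas the sample labels call them Wistar, and no age is given beyond body weight. The tissue was the lumbar enlargement on the injected side, without meninges. It contains neurons, glia, vessels and the central ends of sensory axons, so fewer cells of a type and less RNA per cell cannot be told apart.

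The 3 precursors of this cluster lie close together and are processed from a shared primary transcript. The cluster is known for its strong expression in sensory organs such as the inner ear and retina and in the sensory neurons of the dorsal root ganglia, and changes in the miR-96 seed impair hearing. In sensory neurons it is known to restrain mechanical sensitivity, in part through auxiliary subunits of voltage-gated calcium channels. A miRNA recognizes its targets mainly through its seed, the bases 2 to 8 counted from the 5′ end, so the seeds show which members can share targets.

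The members' mature sequences from RefSeq (GRCr8 build) are shown with the seed in capitals, because the 3 abundant members have nearly the same one.
miR-183-5p: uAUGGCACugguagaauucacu
miR-96-5p: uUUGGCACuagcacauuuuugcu
miR-182: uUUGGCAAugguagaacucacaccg
miR-183-3p: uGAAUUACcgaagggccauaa
The seeds of miR-96-5p and miR-182 differ only at the last seed base, written A8C from miR-182 to miR-96-5p. Those of miR-183-5p and miR-96-5p differ only at the first seed base, A2U from miR-183-5p to miR-96-5p. miR-183-5p and miR-182 differ at both (A2U and C8A) and are otherwise alike. Of their first 22 bases, seed included, 18 are the same, and they share a run of 8 bases just after the seed. miR-183-3p, from the opposite arm of the miR-183 hairpin, differs from miR-183-5p at 5 seed bases. RefSeq held a mature sequence for all 5 members and for 688 of the 753 listed miRNAs. Outside the cluster, 0 of these had the full seed of a member.

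On GRCr8 the hairpins lie on the minus strand of chromosome 4, Mir183 at chr4:59756044-59756153, Mir96 at chr4:59755841-59755946 and Mir182 at chr4:59752246-59752307. Mir183 and Mir96 are 97 bases apart, and Mir182 lies 3533 bases beyond Mir96. The nearest annotated protein-coding genes are Nrf1 on the side of Mir182 and Ube2h on the side of Mir183, and the span from Mir182 to Mir183 overlaps no annotated protein-coding gene. An antisense miRNA gene, Mir3553, overlaps the span of the cluster on the plus strand, and its mature miRNA covers all 22 bases of miR-183-5p. miR-3553, which was looked up after the counts were seen, was listed at 0 in every library. Whether the counting used strand is not given in the sources used here.

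Library totals ranged from 13464349 to 23770677 counts, and 3 counts, taken as the smallest amount told from 0, corresponded to 0.127 to 0.221 CPM. CPM here means counts relative to the library total after edgeR's TMM scaling. Of the 753 listed miRNAs, 459 passed the filter on low counts, 4 of them cluster members. edgeR put the common biological coefficient of variation at 16.9%, and libraries of a group were not copies of each other, with a chi-square of at least 59.0 per degree of freedom. The libraries of a group differed by base composition, as described with miR-96-5p, and BCP rats 2 and 3 were the most alike pair. Neural miRNAs (miR-9a, miR-124, miR-128, miR-137 and miR-138) summed to between 124903 and 140638 CPM in the 6 libraries, and the HOX-cluster miRNAs miR-10, miR-196 and miR-615, which mark posterior tissue, to between 19825 and 24908 CPM. The oligodendrocyte miRNAs miR-338 and miR-219a-5p summed to between 4832 and 6593 CPM, nearly all of it miR-338-5p, while miR-219a-5p had 5.71 ± 1.02 CPM in the BCP group and 5.14 ± 0.812 in the sham-operated group (SD, n = 3 rats each). Arms whose name holds a locus number, such as miR-128-1-5p, miR-138-1-3p and miR-219a-2-3p, were not in these sums. miR-21-5p, which most tissues express, was listed at 0 in every library, as were both arms of the blood-cell miRNA miR-142, so a listed 0 cannot be read as absence here. Whether low nonzero counts, such as those of miR-183-3p, are complete was not tested.

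The cluster was a well-detected but minor part of the spinal cord miRNAs, and its level did not part the groups. Its 5 rows together made up 0.21% ± 0.0177 of the counts in the BCP group and 0.217% ± 0.0108 in the sham-operated group (SD, n = 3 rats each). The summed level was 2132, 1894 and 2295 CPM in BCP rats 1, 2 and 3, against 2258, 2079 and 2149 CPM in rats 1, 2 and 3 of the sham-operated group. On this scale the lowest and the highest library both belonged to BCP rats, and the sham-operated rats lay between them. As a share of the counts, BCP rat 2 was again the lowest, at 0.191%, and sham-operated rat 3, at 0.227%, was just above BCP rat 3, at 0.226%.

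Levels of different miRNAs were compared as counts without scaling to length, because a small RNA read spans the whole mature miRNA. How well each sequence was ligated and amplified was not measured, so the order is one of counts and not of molecules. By mean level over the 6 libraries the order was miR-183-5p at 1035 CPM, miR-182 at 990 CPM, miR-96-5p at 108 CPM, miR-183-3p at 1.69 CPM and miR-96-3p, with 1 count in all. The first and second ranked 74 and 75 among the 753 listed miRNAs and did not differ beyond their spread, whereas miR-96-5p ranked 185. Every library had at least 893 CPM of miR-182 and at most 143 CPM of miR-96-5p, so that step exceeded the spread between rats, as did the step to miR-183-3p, with at most 2.25 CPM. The members differ in mature length, with 25 nucleotides for miR-182, 23 for miR-96-5p, 22 for miR-183-5p and 21 for miR-183-3p, and the study's methods give 21 to 22 nucleotides as the length by which known miRNAs were identified. Among the matched miRNAs with counts, 118 are longer than 22 nucleotides and held 23.9% of the counts, so longer miRNAs were counted, and the part of length in the order of levels was not tested.

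**Figure D1:**
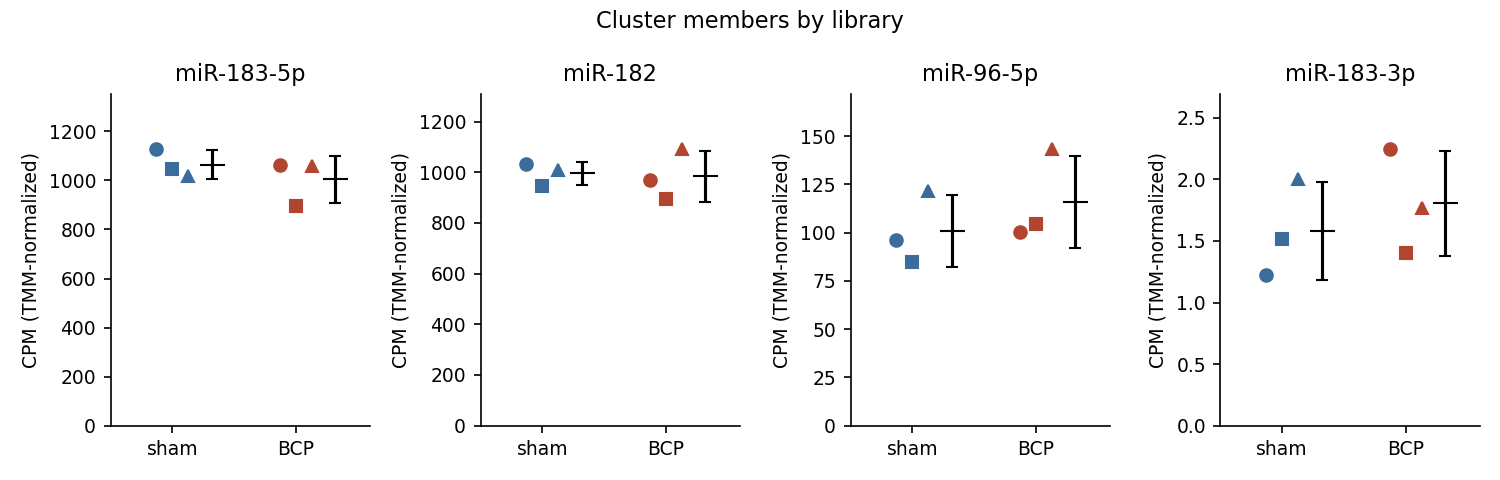
TMM-normalized CPM (linear axis from 0) of the 4 tested cluster members in each library. Circles, squares and triangles stand for rats 1, 2 and 3, and the black bars for mean ± SD of 3 rats. The groups overlap in each panel, and the triangle of rat 3 is the highest point of both groups for miR-96-5p, at 121 CPM in the sham-operated and 143 CPM in the BCP group.

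Whether BCP changed the cluster was asked with edgeR's quasi-likelihood test over all 459 tested miRNAs and the study's thresholds, an absolute log2 fold change above 0.8 and a Benjamini-Hochberg adjusted p below 0.05. It called 0 of the 4 tested members, against 3.49% of all tested miRNAs, and 0 of the 4 had an unadjusted p below 0.05, against 13.1% of all. DESeq2, limma-voom and edgeR's exact and likelihood ratio tests also called 0 members. BCP and sham-operated rats overlapped for all 4, whereas 18.5% of all tested miRNAs had groups that did not overlap. The members' log2 fold changes lay between -0.08 and 0.21, and the median of all tested miRNAs was -0.0034.

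miR-183-5p, the leading arm of the first hairpin, had 25043, 12153 and 16722 counts in BCP rats 1, 2 and 3, which was 1062, 895 and 1058 CPM. The sham-operated rats had 15657, 15921 and 15214 counts, which was 1129, 1047 and 1017 CPM. BCP rat 2 was the lowest of the 6 and the other libraries lay close together. The means were 1005 ± 95.2 CPM in the BCP group and 1064 ± 57.7 CPM in the sham-operated group (SD, n = 3 rats each), and the log2 fold change was -0.08 (standard error 0.108, 95% confidence interval -0.33 to 0.17, edgeR's quasi-likelihood test, adjusted p = 0.803). It was -0.0037 without BCP rat 2, -0.14 without BCP rat 1, -0.13 without BCP rat 3 and -0.15 without sham-operated rat 3, so each of these libraries moved the small difference by more than 1.5 times.

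miR-182, whose seed differs from that of miR-96-5p in its last base, had 22815, 12127 and 17267 counts in BCP rats 1, 2 and 3, which was 968, 893 and 1092 CPM. It had 14311, 14373 and 15078 counts in the sham-operated rats, which was 1032, 945 and 1008 CPM. As with the summed CPM, the lowest and the highest values were both in BCP rats. The means were 984 ± 100.5 and 995 ± 44.7 CPM (SD, n = 3 rats each), and the log2 fold change was -0.02 (standard error 0.109, 95% confidence interval -0.27 to 0.24, same edgeR test, adjusted p = 0.972). Its direction turned without BCP rat 2, to 0.052, and it was -0.11 without BCP rat 3, -0.06 without sham-operated rat 2 and -0.04 without sham-operated rat 3.

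miR-96-5p, the member known from inherited hearing loss, had 2363, 1419 and 2267 counts in BCP rats 1, 2 and 3, which was 100.2, 105 and 143 CPM. The sham-operated rats had 1332, 1292 and 1816 counts, which was 96.03, 85.0 and 121 CPM. Sham-operated rat 3 exceeded BCP rats 1 and 2, so the groups overlapped. The means were 116 ± 23.8 and 101 ± 18.7 CPM (SD, n = 3 rats each), and the log2 fold change was 0.20 (standard error 0.189, 95% confidence interval -0.23 to 0.64, same edgeR test, adjusted p = 0.708). Without BCP rat 3 it was 0.012, without sham-operated rat 2 it was 0.086, and without sham-operated rat 3 it was 0.33, so each of these libraries moved the value by more than 1.5 times.

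miR-183-3p, the minor arm, had 53, 19 and 28 counts in BCP rats 1, 2 and 3, which was 2.25, 1.40 and 1.77 CPM. It had 17, 23 and 30 counts in the sham-operated rats, which was 1.23, 1.51 and 2.01 CPM, within the range of the BCP rats or just below it. The log2 fold change was 0.21 (standard error 0.284, 95% confidence interval -0.44 to 0.87, same edgeR test, adjusted p = 0.807). It depended on single libraries, with -0.0098 without BCP rat 1, 0.35 without BCP rat 2, 0.033 without sham-operated rat 1 and 0.39 without sham-operated rat 3. Its coefficient of variation was 23.6% in the BCP group and 24.97% in the sham-operated group, where counting error alone gives 17.3% and 20.7%. For miR-183-5p counting error gives 0.746% and 0.801%, against 9.47% and 5.42% between rats. Intervals of counting error cover the sampling of reads only, because the reads carry no molecular identifiers. The confidence intervals of miR-183-5p, miR-182 and miR-96-5p lay within the study's threshold of 0.8 in both directions, and the interval of miR-183-3p reached past it upward, so for this arm a rise of that size was not excluded.

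**Figure D2:**
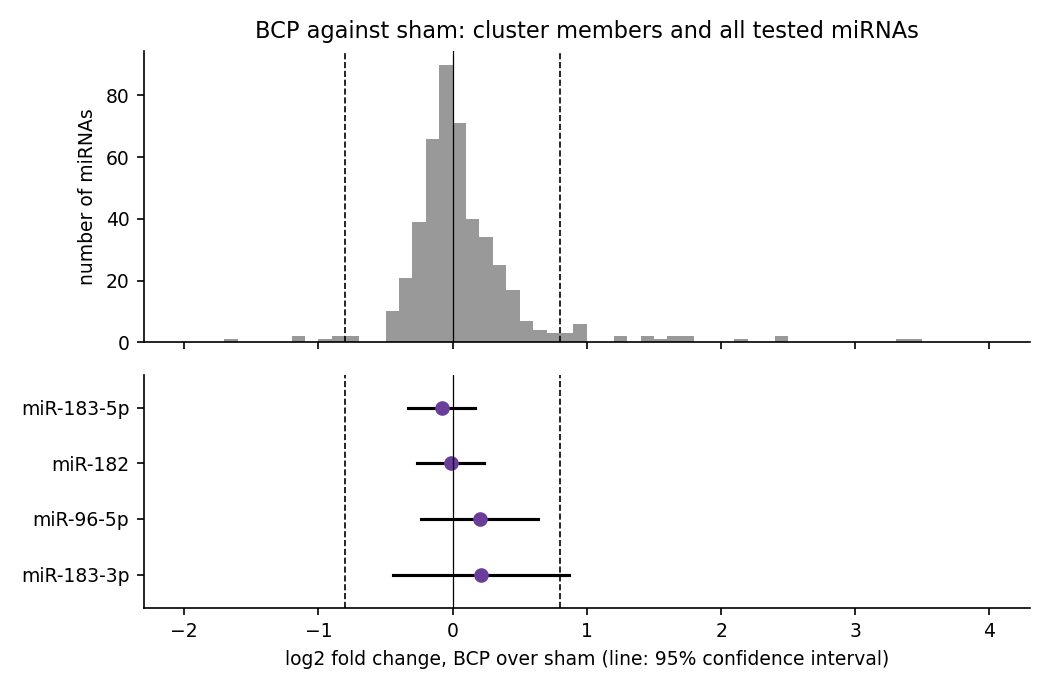
Top, number of tested miRNAs (of 459) by log2 fold change of BCP over sham in steps of 0.1. Bottom, log2 fold change of the 4 tested cluster members with 95% confidence intervals as lines. Dashed lines mark -0.8 and 0.8, and only the interval of miR-183-3p, from -0.44 to 0.87, reaches past one of them.

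The arms of each hairpin were compared within libraries, so that no scaling enters. For miR-183 the 5p arm took 99.79%, 99.84% and 99.83% of the counts of both arms in BCP rats 1, 2 and 3, against 99.89%, 99.86% and 99.80% in rats 1, 2 and 3 of the sham-operated group. The 95% Clopper-Pearson interval was 99.72% to 99.84% in BCP rat 1, the lowest, and 99.83% to 99.94% in sham-operated rat 1, the highest. The means were 99.82% ± 0.0291 and 99.85% ± 0.0444 (SD, n = 3 rats each), a difference smaller than the spread within groups (exact permutation test, two-sided, p = 0.4, where 0.1 is the smallest p that 3 rats against 3 allow). The difference was -0.0283 percentage points with all rats and kept its sign with any 1 rat left out, at -0.0118 without BCP rat 1, -0.0076 without sham-operated rat 1 and -0.0518 without sham-operated rat 3. It was -0.0573 without both rats numbered 3 and -0.0090 without BCP rat 1 and sham-operated rat 2. Over all libraries miR-96-5p had 10489 counts and miR-96-3p 1, in sham-operated rat 2, and the other libraries listed miR-96-3p at 0. Among the 214 hairpins listed with both arms and at least 100 counts, the major arm took a median of 97.3%, and by this share miR-96 ranked 31 and miR-183 ranked 56. For miR-182 no second arm is listed.

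Members made from a shared transcript can be compared with each other in the same library, and the question was whether their ratios differed between the groups. Per 100 counts of miR-183-5p there were 91.1, 99.8 and 103 counts of miR-182 in BCP rats 1, 2 and 3, against 91.4, 90.3 and 99.1 in rats 1, 2 and 3 of the sham-operated group. The means were 98.0 ± 6.26 and 93.6 ± 4.81 (SD, n = 3 rats each, two-sided exact permutation test, p = 0.3). Per 100 counts of miR-183-5p there were 9.44, 11.7 and 13.6 counts of miR-96-5p in BCP rats 1, 2 and 3, against 8.51, 8.12 and 11.9 in rats 1, 2 and 3 of the sham-operated group. The means were 11.6 ± 2.06 and 9.52 ± 2.10 (SD, n = 3 rats each, two-sided exact permutation test, p = 0.3). The groups overlapped for both ratios, and in both groups rat 3 had the highest value. With 3 ratios tested and 0.1 as the smallest possible p, none could have passed 0.05. The BCP mean exceeded the sham-operated mean by 2.04 for miR-96-5p and 4.45 for miR-182, and both differences depended on single rats. For miR-96-5p the difference was 3.10 without BCP rat 1, 1.04 without BCP rat 3, 1.33 without sham-operated rat 2 and 3.25 without sham-operated rat 3. For miR-182 it was 7.93, 1.85, 2.79 and 7.21 without the same rats in the same order.

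**Figure D3:**
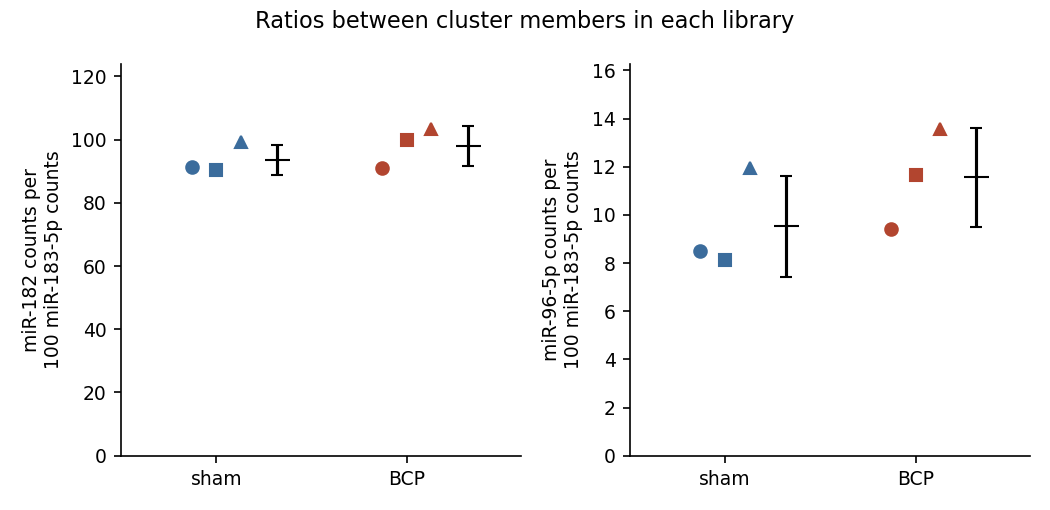
Counts of miR-182 (left) and miR-96-5p (right) per 100 counts of miR-183-5p in the same library, on linear axes from 0. Circles, squares and triangles stand for rats 1, 2 and 3 and black bars for mean ± SD of 3 rats. The triangle is highest in each group, at 11.9 and 13.6 for miR-96-5p.

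miR-182 followed miR-183-5p more closely than miR-96-5p did. The log2 ratio of miR-182 to miR-183-5p had an SD of 0.083 over the 6 libraries, against 0.298 for miR-96-5p and 0.327 for miR-183-3p. Among 329 other miRNAs (those with a mean of at least 10 CPM, and the members), miR-182 ranked 11 by closeness to miR-183-5p and miR-96-5p ranked 243. Closeness to miR-182 put miR-183-5p at rank 7 and miR-96-5p at rank 166. These ranks describe 6 libraries that also differ in base composition, and no test was made of them.

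The libraries of each group differed in base composition, and miR-96-5p is the tested member with the lowest GC content, 39.1%, against 40.9% for miR-183-5p, 42.9% for miR-183-3p and 48.0% for miR-182. On the scale of log2(CPM + 0.1), each library was set against the mean of the other two of its group. The 40 tested miRNAs with a GC content from 35% to under 40% had a median difference of -0.44 in BCP rat 1, 0.12 in BCP rat 2 and 0.29 in BCP rat 3. In the sham-operated group their median difference was 0.07 in rat 1, -0.49 in rat 2 and 0.51 in rat 3. BCP rat 1 and sham-operated rat 2 were thus low for these miRNAs, and rat 3 was the highest of its group in both. For miR-96-5p itself the difference was -0.29 in BCP rat 1, -0.20 in BCP rat 2 and 0.49 in BCP rat 3. It was -0.08 in sham-operated rat 1, -0.35 in rat 2 and 0.43 in rat 3, so BCP rat 2 and sham-operated rat 1 had the opposite sign from the median of the 40. For miR-182 they lay between -0.20 and 0.23 and for miR-183-5p between -0.24 and 0.13. miR-183-3p, with few counts, had the widest range, from -0.48 in BCP rat 2 to 0.53 in sham-operated rat 3, and in BCP rat 1 it was at 0.49 where the median of its GC class was -0.15. Between the groups, these 40 had a median log2 fold change of 0.19, close to the 0.20 of miR-96-5p, and relative to that median the log2 fold change of miR-96-5p was 0.013. For the 65 miRNAs from 40% to under 45%, which hold both arms of miR-183, the median log2 fold change was 0.068, and for the 88 from 45% to under 50%, which hold miR-182, it was 0.0038. Relative to these medians miR-183-5p was at -0.15, further from 0 than without them, miR-183-3p at 0.14 and miR-182 at -0.02. The part of base composition in the values of miR-96-5p was not tested. With BCP rat 1 and sham-operated rat 2 left out, the log2 fold change of miR-96-5p was 0.14 (edgeR's quasi-likelihood test, adjusted p = 0.788), with values of -0.18 for miR-183-5p, -0.08 for miR-182 and -0.0736 for miR-183-3p. With both rats numbered 3 left out it was 0.18 (same edgeR test, adjusted p = 0.559), with values of -0.15 for miR-183-5p, -0.08 for miR-182 and 0.45 for miR-183-3p, and 0 members were called in either fit.

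**Figure D4:**
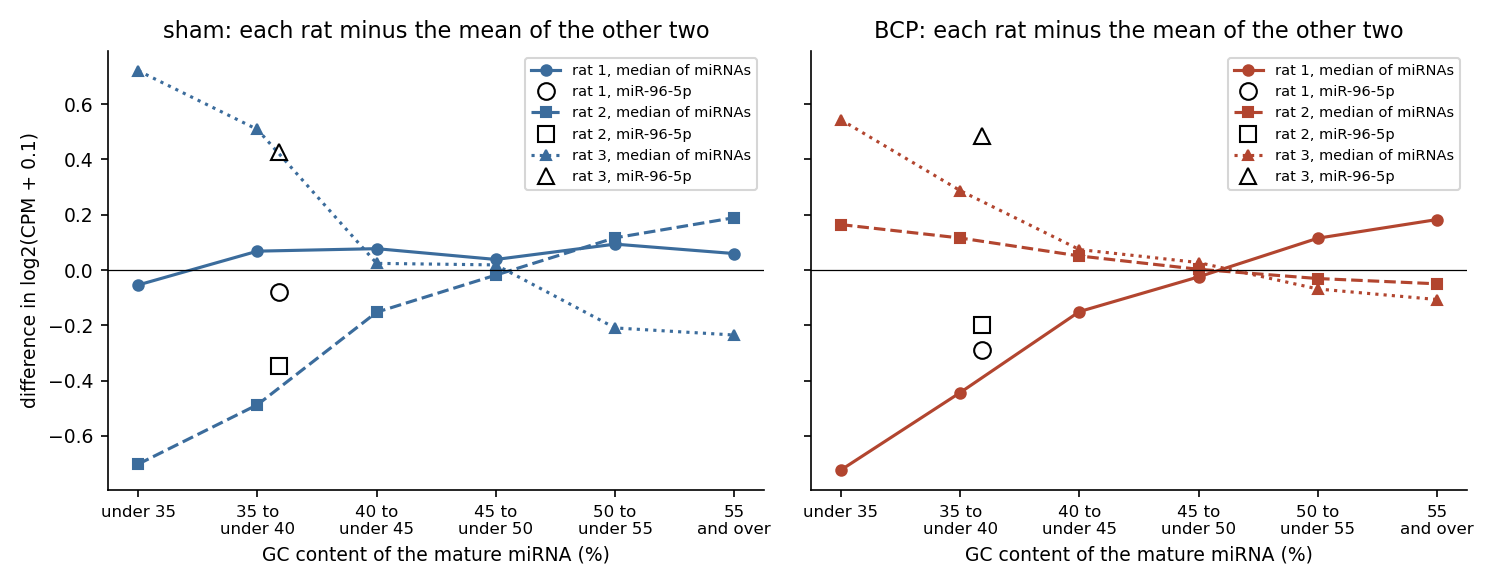
Difference in log2(CPM + 0.1) between each library and the mean of the other two of its group, as the median of the tested miRNAs in each class of GC content in percent (filled symbols joined by lines, 427 miRNAs with a RefSeq sequence) and for miR-96-5p (open symbols). Circles, squares and triangles stand for rats 1, 2 and 3. Under 35% GC, BCP rat 1 is at -0.72 and sham-operated rat 2 at -0.70, below the other rats of their groups, and rat 3 is the highest, at 0.54 in the BCP and 0.72 in the sham-operated group.

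The miRNAs with the pattern most like the cluster's were sought among the tested non-members, by Pearson's r over the 6 libraries with the mean centred log2(CPM + 0.1) of the 4 tested members. The 5 highest were miR-879-3p (r = 0.985), miR-592 (r = 0.832), miR-344a-3p (r = 0.812), miR-31a-3p (r = 0.780) and miR-551b-3p (r = 0.761), with log2 fold changes of BCP over sham between 0.18 and 0.29. These r values are the highest of a search over the 459 tested miRNAs without the members. They rest on 6 libraries that also differ in base composition, no test was made of them, and they do not show shared regulation. The list depended on the inclusion of miR-183-3p. With the 3 abundant members alone, an alternative chosen after seeing the data, the 5 highest were miR-181c-3p (r = 0.903), miR-1843a-5p (r = 0.896), miR-7b (r = 0.871), miR-345-3p (r = 0.870) and let-7a-2-3p (r = 0.833), with log2 fold changes between -0.08 and 0.0087, and the lists shared 0 miRNAs.

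Other miRNAs studied in nociception gave a setting for the cluster's values. The list held rows named by miRNA with an arm suffix or none. Arms whose name holds a locus number, such as miR-7a-2-3p and miR-219a-2-3p, were left out. Of the 41 rows held for 23 such miRNAs, 37 were tested, 4 were called higher and 0 lower in the BCP group (3.49% and 0% of all tested miRNAs). Their median log2 fold change was 0.0077. The called ones were both arms of miR-155 and of miR-146a, miRNAs induced in inflammation, and miR-146a-3p is named here after its values were seen. miR-155-5p was at 287 ± 27.4 CPM in the BCP group and 25.4 ± 1.21 CPM in the sham-operated group (SD, n = 3 rats each), and the log2 fold change was 3.50 (standard error 0.131, edgeR's quasi-likelihood test, adjusted p = 1.98e-06). At the same depth the interval of miR-183-5p, the most abundant member, ended at 0.17.

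The cluster is also expressed in epithelia and carcinomas, so the epithelial miRNAs of the miR-200 family, miR-203 and miR-205 were set beside it. Of their 14 listed arms, 5 were tested, with a median log2 fold change of 0.50 against -0.0034 over all tested miRNAs, 4 were listed at 0 in every library, and 1 was called higher, against 3.49% of all tested miRNAs. This was miR-200c-3p, with 239, 171 and 191 counts in BCP rats 1, 2 and 3, against 56, 70 and 38 counts in rats 1, 2 and 3 of the sham-operated group (log2 fold change 1.63, standard error 0.228, edgeR's quasi-likelihood test, adjusted p = 0.00556). miR-203a-3p had a log2 fold change of 1.22 and an adjusted p of 0.0692, and miR-200a-3p one of 0.50 and an adjusted p of 0.546 in that edgeR fit. The other two tested arms, miR-200b-3p at -0.23 and miR-205 at 0.0076, had groups that overlapped. The 14 arms summed to between 34.99 and 45.7 CPM in the BCP group and between 22.2 and 24.9 CPM in the sham-operated group, which did not overlap, as the groups did not for 18.5% of all tested miRNAs taken singly. The gap came from miR-200c-3p, at 11.6 against 3.73 CPM on average, and miR-203a-3p, at 16.6 against 7.08 CPM, whereas miR-205 had 9.32 CPM in both groups. Of the myeloid miRNAs, both tested arms, those of miR-223, were called higher (against 3.49% of all tested miRNAs, median log2 fold change 2.29), and miR-142 was listed at 0. The erythroid miRNAs miR-451 and miR-144 were listed at 0 in every library. Of the other lists, 0 of 8 neural, 0 of 3 oligodendrocyte, 0 of 9 HOX-cluster, 0 of 6 choroid plexus, 0 of 5 muscle and 0 of 6 vascular tested arms were called. Their median log2 fold changes were 0.15, 0.069, 0.045, -0.22, 0.016 and 0.078 in the same order. These lists too left out arms with a locus number, such as miR-128-1-5p of the neural and miR-219a-2-3p of the oligodendrocyte miRNAs. The counts and medians do not cover those arms. The choroid plexus arm miR-448-5p came close to the threshold, with 49, 25 and 30 counts in BCP rats 1, 2 and 3 against 51, 52 and 50 in the sham-operated rats, without overlap in CPM, and a log2 fold change of -0.83 (same edgeR test, adjusted p = 0.052). The part of these cell types in the cluster's values was not tested.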

How the data were processed

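The authors trimmed reads with the FASTX Toolkit, mapped clean reads to Rnor_6.0 with Bowtie2 2.2.3 (labels' processing notes) and identified known miRNAs by length and miRBase. They deposited raw read counts per mature miRNA, without normalization. All 6 count columns were assigned by label. Counts were filtered with filterByExpr (minimum count 10), scaled by TMM and compared with the quasi-likelihood test of edgeR 4.0.16 in R 4.3.3, with Benjamini-Hochberg adjustment. Standard errors came from the log2 fold change and the F statistic. The fit was tested on simulated data. Alternatives were other filters, total counts, RLE, edgeR's exact and likelihood ratio tests, DESeq2 1.42.0, limma-voom (limma 3.58.1), a replicate block and leaving out each rat. Leaving out both rats numbered 3, leaving out BCP rat 1 and sham-operated rat 2, the GC comparison and the profile without miR-183-3p were chosen after seeing the data. Permutation tests used SciPy 1.17.1.

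The members and lists were chosen with earlier results of these data known. Named miRNAs are the members, miRNAs sharing a member's seed, up to 3 per list with the smallest p, and the 5 most like the cluster's profile. Lists held rows named by miRNA with an arm suffix or none. Arms of list miRNAs whose name holds a locus number are named only as left out. miR-3553, miR-219a-5p, miR-338-5p, miR-200b-3p, miR-205, miR-21-5p, miR-142 and miR-146a-3p were named after their values were seen. The labels do not say how reads matching several miRNAs were assigned. Each library comes from a separate rat according to the study. Coordinates are those of GRCr8, not the authors' build, and serve only to place the hairpins.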

Additional observations from a re-analysis of the deposited data

How the results depend on the processing

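In all alternatives run, including those that left out a rat, 0 cluster members were called. Apart from leaving out single rats, 11 settings gave log2 fold changes of -0.18 to -0.08 for miR-183-5p, -0.08 to -0.01 for miR-182, 0.14 to 0.20 for miR-96-5p and -0.0736 to 0.45 for miR-183-3p. The sign changed in 1 of these settings, for miR-183-3p with BCP rat 1 and sham-operated rat 2 left out (-0.0736), and the cause was not tested. When single rats were left out, log2 fold changes ranged from -0.15 to -0.0037 for miR-183-5p, from -0.11 to 0.052 for miR-182, from 0.012 to 0.33 for miR-96-5p and from -0.0098 to 0.39 for miR-183-3p. miR-182 changed sign without BCP rat 2 and miR-183-3p without BCP rat 1, and for both the cause was not tested. Adjusted p stayed at or above 0.261 for every member in these fits. With single rats left out, the difference between groups in the ratio of miR-96-5p to miR-183-5p ranged from 1.04 to 3.25 per 100, that of miR-182 from 1.85 to 7.93 per 100, and that of the 5p share from -0.0518 to -0.0076 percentage points.

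Same-numbered rats of the groups are separate animals. The deviations of same-numbered rats from their group means correlated at 0.109, -0.452 and 0.711 for numbers 1, 2 and 3 over the tested miRNAs. The rats numbered 3 matched each other best, whereas BCP rat 1 correlated best with sham-operated rat 2, at 0.746. These deviations also carry the differences in base composition, so they cannot decide whether the numbers pair the samples. With the replicate block miR-96-5p had a log2 fold change of 0.20 (edgeR's quasi-likelihood test, adjusted p = 0.514), 0 members were called, and 18 of all tested miRNAs were called against 16 without the block. Not every sample correlated best with its own number. miR-183-3p, with at most 53 counts in a library, and miR-96-3p, with 1 count in all, are limited by depth.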

Other observations

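Chosen after seeing the data, the difference of each library from the other two of its group was followed over GC content in the 427 of 459 tested miRNAs with a sequence. For the 31 miRNAs under 35% GC the median difference in log2(CPM + 0.1) was -0.72 in BCP rat 1, 0.16 in BCP rat 2 and 0.54 in BCP rat 3, against -0.05 in sham-operated rat 1, -0.70 in rat 2 and 0.72 in rat 3. For the 107 miRNAs with 55% GC or more it was 0.18 in BCP rat 1, -0.05 in BCP rat 2 and -0.11 in BCP rat 3, against 0.06 in sham-operated rat 1, 0.19 in rat 2 and -0.24 in rat 3. Across miRNAs, which are not independent replicates, Spearman's rho of the difference with GC content was 0.575 in BCP rat 1, -0.271 in BCP rat 2 and -0.536 in BCP rat 3, and 0.0786 in sham-operated rat 1, 0.536 in rat 2 and -0.488 in rat 3. Its rho with mature length lay between -0.0644 and 0.0377. Between the groups the median log2 fold change went from 0.24 under 35% GC to -0.15 at 55% GC or more.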
